A study of Rattus norvegicus with 10 samples.

Results

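Long non-coding RNA (lncRNA) loci with a single transcript were examined in rat cerebral cortex after ischaemic stroke. A locus was the number that the transcript assembler gave to a group of overlapping transcripts, and an isoform was a transcript within it. Loci were taken when the lncRNA table held exactly 1 row for them and the mRNA table held none. The rule found 16308 loci, which were 74.3% of the 21955 lncRNA loci and 52.3% of the 31183 lncRNA rows. For these loci a change between groups cannot come from an exchange between isoforms listed under the same locus number. Annotated transcripts of the mRNA table carry no locus number, so an exchange with an annotated isoform could not be checked. Just outside the rule lay 1551 lncRNA-only loci with 2 rows, and 2071 loci with 1 lncRNA row and rows in the mRNA table. In 16 of the loci the isoform number was 2 or 3, and no transcript numbered 1 for them was in the tables used here.

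Cortex came from male Sprague-Dawley rats, which were 8 to 9 weeks old and weighed 240 ± 20 g. In the MCAO/R group the middle cerebral artery, which supplies much of the lateral cortex, was occluded for 2 h and blood flow was then restored for 24 h. The control group had sham surgery. Each group had 5 libraries, with replicate numbers 1 to 5 (MCAO/R) and 6 to 10 (sham), and the design text asks how the lncRNA and mRNA transcriptomes differ between them. Whether the libraries of a group stem from different animals is not stated in the labels. The p-values below therefore refer to the spread among these libraries, which may be technical.

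lncRNAs are transcripts longer than most small RNAs that carry no long open reading frame. Many are held in the nucleus, many are transcribed at low rates in few cell types, and some act on chromatin or on the transcription of neighbouring genes. Transcripts with 1 known isoform include unspliced RNA, for which an assembler cannot tell an independent gene from a piece of a longer primary transcript. In bulk tissue, fewer cells of a type and less RNA per cell cannot be told apart.

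Neither the tables nor the reference table of rat genes pairs the identifiers with gene symbols: 0 of the 16308 loci and 0 of the 26001 annotated transcripts matched. The labelled tissue could therefore not be checked against marker genes, and no sequence or genome position is given. Levels are FPKM, fragments scaled to transcript length and library total. Absolute depth is unknown, but relative library totals were estimated from the values. The estimate assumes that equal numbers of fragments on a locus with 1 transcript give FPKM that differ between libraries only by the library total, so that 1 ratio recurs across loci. The assumption could not be checked, since the program that computed the values is not stated. Against MCAO/R replicate 1, between 340 (sham replicate 6) and 769 (MCAO/R replicate 2) single-row loci of the mRNA table fell into the fullest bin of 0.0002 on the log2 scale, and the next separate bins held between 57 and 102. The fullest bin of the single-isoform lncRNA loci was the same in 9 of 9 libraries, though it held few of them, from 9 against 5 in the next bin (sham replicate 6) to 26 against 5 (sham replicate 8). All 36 remaining pairs of libraries matched within 0.0005. Under this assumption, library totals relative to MCAO/R replicate 1 lay between 0.960 and 1.09 in MCAO/R and between 0.878 and 1.11 in sham libraries. The lowest total was that of sham replicate 7 and the highest that of sham replicate 10, and the ranges of the groups overlapped.

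Most of the loci were scarce. The median of their mean levels over the 10 libraries was 0.142 FPKM, with quartiles of 0.0712 and 0.290. Annotated transcripts above 0 in some library had a median of 0.533 FPKM, and rows of lncRNA-only loci with several isoforms a median of 0.157. A mean below 0.1 FPKM was found for 6070 loci (37.2%) and a mean from 0.1 to 0.5 for 8620 (52.9%). Only 286 loci lay between 1 and 5 FPKM, 22 between 5 and 20, and 10 at 20 or more. A single locus, MSTRG.268847.1, with a mean of 21270 FPKM, held between 67.3% and 83.8% of the summed FPKM of all 16308 loci in the 10 libraries, so sums over the loci mainly describe that transcript.

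Detection was graded rather than all or none. Above 0 in every library were 5398 loci (33.1%), against 24.8% of the rows of lncRNA-only loci with several isoforms and 29.5% of all lncRNA rows. At the other end, 2024 loci (12.4%) were above 0 in only 1 library. Those had a median of 0.414 FPKM in that library and a highest value of 1.71. The number above 0 in a single library ran from 118 in MCAO/R replicate 3 to 353 in MCAO/R replicate 4. The more libraries a locus was seen in, the higher its mean over all 10 libraries, from a median of 0.0414 FPKM with 1 library to 0.362 FPKM with 10. That mean includes the libraries at 0, so the trend is fixed in part by the averaging. In the 1 library where they were seen, the former loci had the median of 0.414 FPKM given above. At least 0.1 FPKM in every library was reached by 2905 loci, at least 1 FPKM by 66 and at least 5 FPKM by 19.

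The number of loci above 0 was similar in the groups, while loci at higher levels were more frequent in 3 sham libraries. MCAO/R libraries had 10379 ± 548 loci above 0 and sham libraries 10703 ± 329 (SD, n = 5 each), with ranges of 9564 to 10826 and 10196 to 11030. At least 1 FPKM was reached by 215, 213, 294, 320 and 393 loci in MCAO/R replicates 1 to 5. In sham replicates 6 to 10 the same count was 301, 1285, 335, 780 and 702. Sham replicates 7, 9 and 10 lay above every MCAO/R library, whereas sham replicates 6 and 8 lay within the MCAO/R range. Rows of lncRNA-only loci with several isoforms showed the same pattern. At least 1 FPKM was reached by 236 to 295 such rows in MCAO/R libraries and by 285, 621, 290, 410 and 375 in sham replicates 6 to 10. Sham replicate 7, with the most loci at 1 FPKM, had the lowest estimated library total, and sham replicate 10 had the highest. The group means differed by -394 loci (MCAO/R minus sham), and by -242.5 without sham replicate 7. The excess in sham depended on the scaling between libraries. With library factors set from lncRNA rows the count ran from 296 to 817 in MCAO/R and from 326 to 390 in sham libraries. With factors from annotated transcripts it ran from 165 to 280 and from 309 to 1967.

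**Figure D1:**
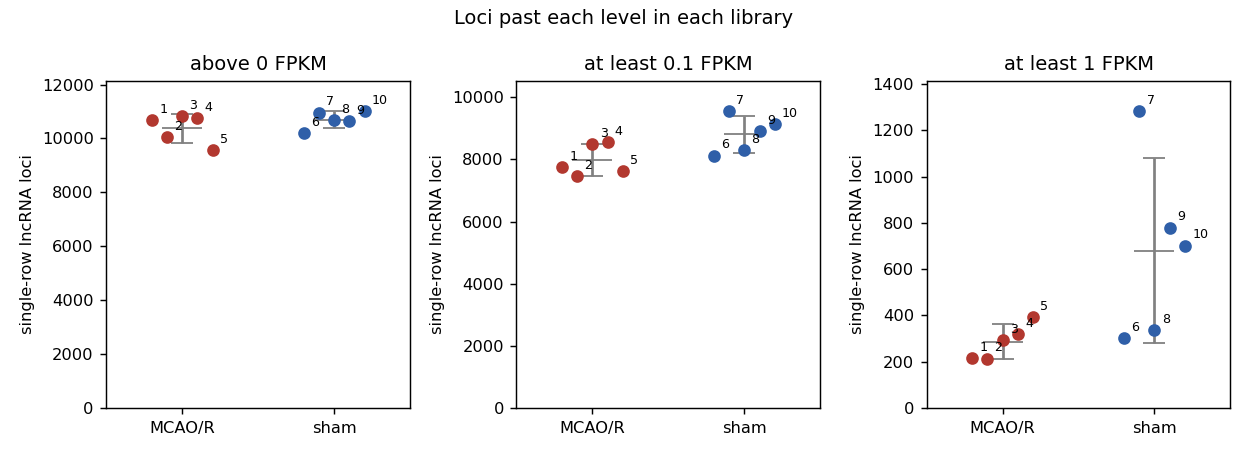
Number of single-isoform lncRNA loci above 0, at least 0.1 and at least 1 FPKM (vertical axes, from 0) in each library, with replicate numbers beside the points; bars give the group mean and SD. Counts above 0 overlap between the groups, and at 1 FPKM sham replicates 7, 9 and 10 reach 1285, 780 and 702 while MCAO/R libraries stay between 213 and 393.

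Relative to its own mean, the typical locus above 0 in every library (5398 loci) had its lowest values in MCAO/R libraries. The median log2 ratio was -0.68, -0.51, -0.18, -0.40 and -0.57 in MCAO/R replicates 1 to 5 and -0.32, 0.65, -0.13, 0.35 and 0.26 in sham replicates 6 to 10. The groups overlapped, because sham replicate 6 lay below MCAO/R replicate 3, and sham replicate 8 lay above all MCAO/R libraries by a small margin. Annotated transcripts moved the other way in the same libraries, with medians of -0.22 ± 0.11 for sham and 0.045 ± 0.041 for MCAO/R (SD, n = 5 each). With that median subtracted, the loci stood between -0.77 and -0.24 in MCAO/R and between -0.22 and 1.04 in sham libraries. These ranges did not overlap, by a small margin between MCAO/R replicate 3 at -0.24 and sham replicate 6 at -0.22. Scaling whole libraries would change the mean of each locus by a different amount. Whether the margin holds under other scalings was therefore not settled and was not tested. Before that subtraction, rows of lncRNA-only loci with several isoforms had medians of -0.44 ± 0.19 (MCAO/R) and 0.092 ± 0.25 (sham), beside -0.47 ± 0.19 and 0.16 ± 0.39 for the single-isoform loci.

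Some loci were seen in 1 group only. Above 0 in all 5 MCAO/R libraries and listed at 0 in all 5 sham libraries were 34 loci, and 14 showed the opposite pattern. An FPKM of 0 may be a failed estimate, so these are described as listed at 0 and not as absent. The 34 loci had MCAO/R means between 0.0864 and 1.75 FPKM, with 11 at 0.5 FPKM or more. The 14 sham loci were weaker, with sham means between 0.120 and 0.373 FPKM and 0 loci at 0.5 FPKM. The counts were also unequal with at least 4 libraries of a group (144 against 67 loci) and with at least 3 (320 against 213). For all lncRNA rows, of which these loci were 52.3%, the counts with 5 libraries were 63 and 31. With at least 4 libraries they were 245 and 145, and with at least 3 they were 557 and 431. The inequality was thus found in the whole lncRNA table too, and was not tested. The lowest MCAO/R value of the 34 loci was in replicate 3 for 15 loci and in replicate 2 for 12.

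The change after MCAO/R was tested with limma on log2(FPKM + 0.1), a scale that understates the change of low loci. All 20293 lncRNA rows averaging 0.1 FPKM or more entered the fit. Of these rows 10238 were single-isoform loci, and the other 6070 loci fell below that mean. More loci were lower than higher after MCAO/R: 143 were lower and 68 higher at an adjusted p under 0.05, together 211 or 2.06% of those tested. Over all lncRNA rows 2.09% were called, 0.67% higher and 1.42% lower, so the loci were called about as often as lncRNA in general. An unadjusted p under 0.05 was reached by 2558 loci (24.99%), beside 22.9% of all rows. The number of calls depended on single libraries: between 2 loci (without MCAO/R replicate 5 or sham replicate 7) and 708 (without MCAO/R replicate 3) were called when 1 library was left out. Over all lncRNA rows the share called moved as well, to 0.0788%, 0.0591% and 6.32% in the same order. The median log2 fold change was -0.41 for the loci, beside -0.38 for all lncRNA rows and -0.32 for rows of lncRNA-only loci with several isoforms. Values below 0 were found for 71.9% of the loci and 69.2% of all rows. A 2-fold or larger difference, called or not, was found upward in 497 of the 10238 tested loci (4.85%) and downward in 1720 (16.8%), beside 6.51% and 17.9% of all tested rows.

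The groups did not overlap in 728 loci, of which 137 stood higher and 591 lower after MCAO/R. They made up 7.11% of the loci, where the background over all lncRNA rows was 6.3%, 1.35% higher and 4.95% lower. How many loci rose and how many fell depended on how libraries were scaled. Factors set from lncRNA rows gave a median of -0.036, with 102 loci higher and 25 lower, and moved the median of all lncRNA rows from -0.38 to -0.020. With quantile normalization the counts were 87 higher and 31 lower, and with factors from annotated transcripts 92 higher and 802 lower. The whole lncRNA table moved in the same direction. Of all tested rows 2.09% were called in the main fit and 1.32% after scaling to lncRNA rows. Quantile normalization left 1.20% of them called, whereas the annotated factors raised the share to 7.90%. Of the 68 loci called higher, between 65 and 68 kept that call under each of the 5 other scalings, and 63 under all 5. All 143 loci called lower kept their call under both scalings to equal sums and under factors from annotated transcripts. With factors from lncRNA rows, which moved the median of the loci upward, 25 of the 143 kept it, and with quantile normalization 31. When each library was left out in turn, 0 of the 143 loci called lower and 2 of the 68 called higher kept their call every time.

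Up to 5 FPKM the share of loci called rose with level, as did the size of the median fall, and both did so over all lncRNA rows too. At 0.1 to 0.2 FPKM 14 of 4131 loci were called (0.339%, beside 0.332% of all rows at that level), and the median log2 fold change of the class was -0.26 (all rows -0.24). From 0.2 to 0.5 FPKM 82 of 4489 were called (1.83%, beside 1.96%). From 0.5 to 1 FPKM the call was made for 62 of 1300 loci (4.77%, beside 4.45%) and the median was -0.59 (all rows -0.56). At 1 to 5 FPKM it was made for 51 of 286 loci (17.8%, beside 11.1%), with 40 of the 51 lower and a median of -0.73 (all rows -0.59). That difference in shares was not tested. At 5 to 20 FPKM 2 of 22 loci were called, both higher (9.09%, beside 4.20% of 143 rows), and the class had a median of 0.18 (all rows 0.14). Of the 10 loci at 20 FPKM or more, with a median of -0.21 (all rows -0.30), limma called 0 (0%, beside 0% of 84 rows). An unadjusted p under 0.05 was reached by 0 of these 10 loci, beside 8.33% of the 84 rows, a difference that 10 loci are too few to judge.

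**Figure D2:**
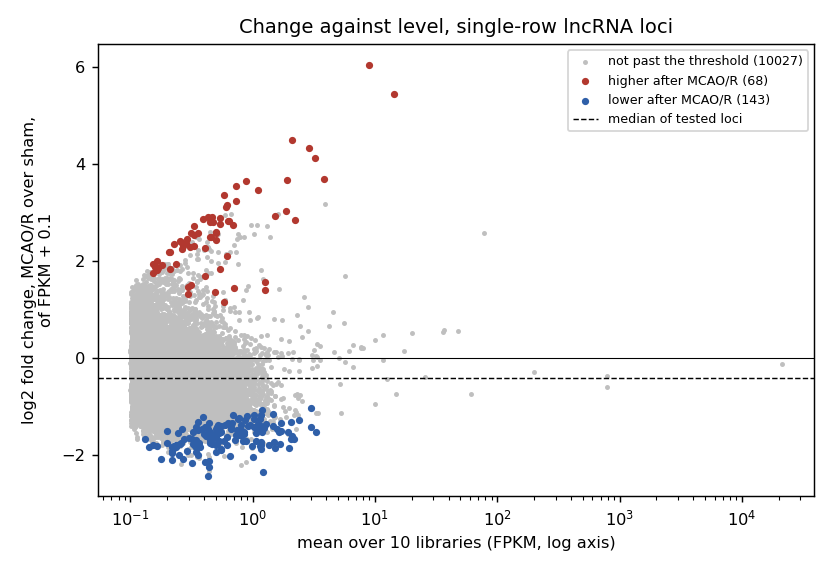
Log2 fold change of MCAO/R over sham (FPKM + 0.1) against mean level in FPKM (log axis) for the 10238 single-isoform loci tested; red and blue points passed an adjusted p of 0.05. Calls upward reach 6.04, calls downward reach -2.42, and the dashed median of all tested loci lies at -0.41.

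Loci called higher were mostly near silent in sham cortex. Their median sham mean was 0.0207 FPKM and their median MCAO/R mean 0.874 FPKM. In 48 of the 68 the sham mean was under 0.1 FPKM, and in 15 every sham library was listed at 0. After MCAO/R 26 of them reached a mean of 1 FPKM and 5 a mean of 5 FPKM. Loci called lower had a smaller change from a higher start: the median sham mean was 0.906 FPKM and the median MCAO/R mean 0.229. In 33 of the 143 the MCAO/R mean was under 0.1 FPKM, and in 1 it was listed at 0 throughout. The median log2 fold change was 2.495 among loci called higher and -1.62 among those called lower, both fixed in part by the call. A locus with a mean under 0.1 FPKM in 1 group passed the filter only through its mean in the other group. The low levels given here are therefore also fixed in part by the filter and the call.

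Of the 211 called loci, 87 had groups that did not overlap and a mean of at least 0.5 FPKM, 22 higher and 65 lower, and the 2 with the largest change in each direction are named. MSTRG.23643.1 stood at 19.1, 28.2, 9.03, 12.4 and 19.9 FPKM in MCAO/R replicates 1 to 5 and at 0.340, 0.211, 0.0591, 0.117 and 0.111 FPKM in sham replicates 6 to 10. Every MCAO/R library was far above every sham library, and replicate 3 was the lowest of its group. On the log2 scale this was a rise of 6.04 (SE 0.353, limma, adjusted p = 2.59e-06). With any 1 library left out the adjusted p was between 3.68e-05 and 0.000412. Only 2 of the 68 loci called higher kept their call with each of the 10 libraries left out in turn, and this locus was 1 of them.

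MSTRG.85473.1 stood at 5.91, 0.245, 1.87, 10.98 and 1.72 FPKM in MCAO/R replicates 1 to 5. It was listed at 0 in sham replicates 6 to 9 and at 0.0483 FPKM in sham replicate 10. The groups did not overlap, but MCAO/R values ran from 0.245 in replicate 2 to 10.98 in replicate 4. On the log2 scale the rise was 4.48 (SE 0.705, limma, adjusted p = 0.0142) and depends on the pseudocount, since most sham values are 0. Without replicate 1, 4, 5, 7, 8 or 9 the adjusted p lay between 0.0515 and 0.0754.

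Of the 65 falls so chosen the largest was that of MSTRG.65254.1, at 0.407, 0.476, 0, 0.868 and 0.281 FPKM in MCAO/R replicates 1 to 5 and at 1.41, 3.00, 1.86, 2.27 and 1.63 FPKM in sham replicates 6 to 10. All MCAO/R libraries were below all sham libraries, with replicate 3 the lowest. Its log2 fold change was -2.35 (SE 0.492, limma, adjusted p = 0.0364). The call was lost without replicate 1, 2, 4, 5, 7, 8, 9 or 10, with an adjusted p of up to 0.119. With factors from lncRNA rows the log2 fold change was -1.83, and limma gave an adjusted p of 0.108.

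MSTRG.32364.1 stood at 0.115, 0.0889, 0.565, 0.165 and 0.160 FPKM in MCAO/R replicates 1 to 5 and at 0.724, 1.53, 0.863, 1.47 and 0.868 FPKM in sham replicates 6 to 10. Here MCAO/R replicate 3 lay closest to sham. Its log2 fold change was -2.01 (SE 0.374, limma, adjusted p = 0.0250). Leaving out replicate 1, 2, 4, 5, 7, 8, 9 or 10 ended the call, with an adjusted p of up to 0.0903.

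**Figure D3:**
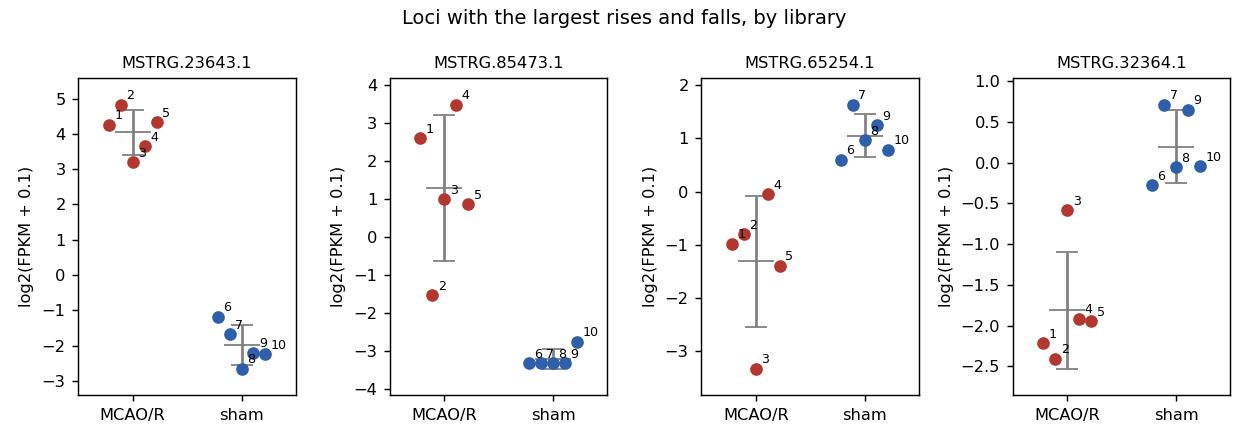
log2(FPKM + 0.1) of the named loci by library (replicate numbers beside the points; bars give the group mean and SD of these log2 values). The groups do not overlap in any of the 4 loci; the MCAO/R values of MSTRG.85473.1 spread from 0.245 to 10.98 FPKM, and MCAO/R replicate 3 is nearest to sham in MSTRG.32364.1.

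The MCAO/R libraries differed in how far the called loci had moved, and not in the same order for rises and falls. Among the 68 loci called higher, replicate 2 was the lowest MCAO/R library in 38 and replicate 3 in 21. Over all tested loci replicate 2 was the lowest of its group in 16.3% and replicate 3 in 10.1%. Replicate 4 was the highest in 27 of the 68. In the 12 largest rises with groups apart and a mean of at least 0.5 FPKM, replicate 2 was the lowest in 11 and replicate 4 the highest in 9. MSTRG.23643.1, with its highest value in replicate 2, was the exception.

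Among the 143 loci called lower, MCAO/R replicate 3 was the highest of its group in 103, against 30.3% of all tested loci. Replicate 2 was the highest in 9 of the 143. The median level of the loci called lower was 0.402 FPKM in MCAO/R replicate 3 and between 0.170 and 0.224 FPKM in the other MCAO/R libraries. On the sham side replicate 7 was the highest in 91 and replicate 6 the lowest in 82, where over all tested loci these shares were 40.1% and 34.7%. So replicate 3 lay toward sham in most of the falls, while replicate 2 lay toward sham in most of the rises. Without MCAO/R replicate 3 the number called was 143 higher and 565 lower, and without sham replicate 6 it was 68 higher and 436 lower. It was between 2 and 8 without MCAO/R replicate 1, 4 or 5 or sham replicate 7, 8 or 9, 28 without sham replicate 10, and 76 without MCAO/R replicate 2.

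**Figure D4:**
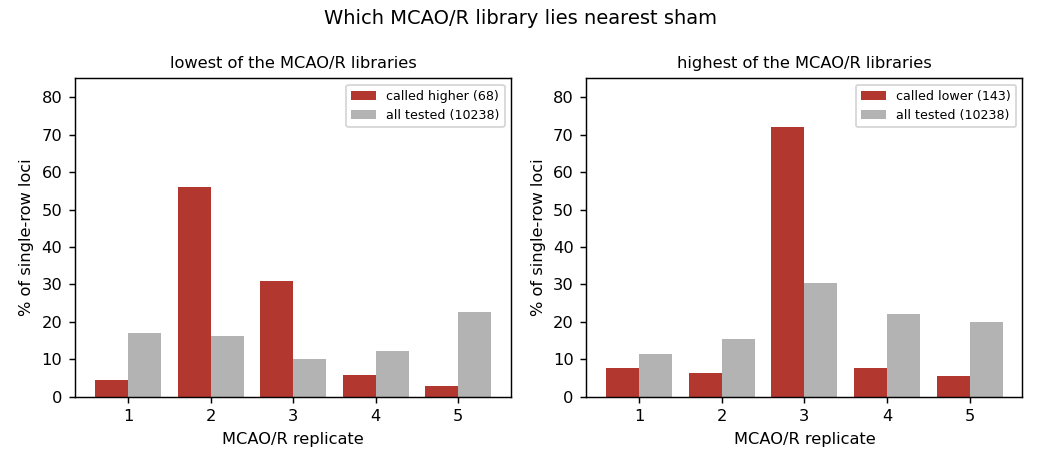
Share of loci (%, from 0) in which each MCAO/R replicate was the lowest of its group among the 68 loci called higher (left) and the highest among the 143 called lower (right), beside the same share over 10238 tested loci in grey. Replicate 2 leads on the left with 38 loci and replicate 3 on the right with 103.

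Of the 12 loci with the highest levels, 3 were higher and 1 was lower after MCAO/R in a test of each locus alone, and the highest 3 showed no difference beyond their spread. The limma model shares variance between lncRNA rows of like level, and of the 84 tested rows at 20 FPKM or more 10 were single-isoform loci. For MSTRG.268847.1 the resulting SE was 12.2 on the log2 scale, whereas its own libraries gave an SE of 0.174. The 12 loci with the highest means were therefore also tested one by one on log2(FPKM + 0.1) by two-sided exact permutation over the 252 assignments of libraries, with Benjamini-Hochberg adjustment over the 12. This test was chosen after the data were seen. It was run on these 12 loci only, so no share over other lncRNA rows of like level can be set beside its counts.

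MSTRG.268847.1 stood at 23008, 19899, 18917, 19576 and 19004 FPKM in MCAO/R and at 18744, 15378, 22725, 26273 and 29179 FPKM in sham replicates 6 to 10. The groups overlapped, and the log2 fold change was -0.13 (exact permutation p = 0.5, adjusted p = 0.667). MSTRG.116387.1 ranged from 34.1 to 1385 FPKM in MCAO/R and from 26.7 to 2599 in sham libraries. It was at 38.4 and 34.1 FPKM in MCAO/R replicates 2 and 5 and at 71.4 and 26.7 in sham replicates 7 and 10, while the other 6 libraries lay at 281 FPKM or more. This spread of 97.4-fold did not follow the groups (exact permutation p = 0.714, adjusted p = 0.779). MSTRG.27883.1 stood at 649, 1003, 855, 1282 and 87.0 FPKM in MCAO/R and at 446, 1205, 677, 632 and 998 FPKM in sham libraries. Apart from the low value in MCAO/R replicate 5 the groups covered the same range (exact permutation p = 0.825, adjusted p = 0.825).

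Among the next 9 loci by level, 3 were higher and 1 lower after MCAO/R by the exact test, each with an adjusted p of 0.0476. The locus in rank 7 stood between 52.2 and 61.8 FPKM in MCAO/R and between 31.1 and 46.7 in sham libraries, without overlap (log2 fold change 0.56, exact permutation p = 0.00794, the smallest possible). In rank 8 the ranges were 36.7 to 50.4 and 22.4 to 37.1 FPKM (0.58, exact permutation p = 0.0159). Rank 11 gave 19.3 to 26.6 and 12.6 to 20.3 FPKM (0.52, exact permutation p = 0.0159). The locus in rank 10 was lower, at 18.0 to 24.5 FPKM in MCAO/R and 26.2 to 32.0 in sham libraries (-0.40, exact permutation p = 0.00794). Under 5 other scalings the 3 rises kept their sign (log2 fold changes from 0.25 to 1.17), and the fall ran from -0.67 to 0.19. In the limma fit over all rows none of the 12 was called, with adjusted p from 0.293 to 0.996.

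A few loci were nearly constant. MSTRG.251177.1 was at 3.03, 3.07, 3.27, 2.91 and 3.43 FPKM in MCAO/R and at 2.60, 3.18, 3.13, 3.13 and 3.04 in sham libraries. Its highest library exceeded its lowest 1.32-fold. MSTRG.190322.2 was at 0.763, 0.748, 0.863, 0.802 and 0.786 FPKM in MCAO/R and at 0.776, 0.705, 0.806, 0.805 and 0.952 in sham libraries, a 1.35-fold range. These 2 had the smallest SD over all libraries among the 1618 loci with a mean of at least 0.5 FPKM, so their lack of a group difference follows from the choice. Of the 1618 loci, 81 stayed within a 2-fold range over all 10 libraries. In 45 the libraries of each group differed 10-fold or more.

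Single-isoform loci varied less between libraries of a group than single rows of loci with several isoforms. At 0.5 to 1 FPKM the median SD of log2(FPKM + 0.1) within groups was 0.48 for 1300 single-isoform loci and 0.70 for 528 rows of several-isoform loci. At 1 to 5 FPKM the medians were 0.46 and 0.88. At 5 FPKM or more they were 0.34 for 32 loci and 2.73 for 66 rows. When the rows of a locus were summed, the medians at these levels were 0.55, 0.52 and 0.36, close to those of the single-isoform loci. These differences were not tested. In MCAO/R and sham libraries the single-isoform loci had median SDs of 0.42 and 0.49 at 0.5 to 1 FPKM.

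The number of calls moved with the rows tested beside these loci, whose own values stayed the same. When lncRNA rows were summed by locus before the test, 806 of the 10238 loci were called, 155 higher and 651 lower. That was 7.87%, where 9.9% of all 14944 loci tested in that way were called. All 211 loci called in the row-wise test were among the 806. The prior SD that limma used for loci of at least 5 FPKM was 0.55 in the row-wise test and 0.43 with locus sums, beside an own median SD of 0.34. The prior degrees of freedom rose from 5.65 to 9.12.

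Loci with near numbers changed alike. Assembled loci of both tables share 1 series of numbers up to 300182, and the sources used here do not say what the assembler ordered them by. Across 1898 pairs of tested loci with consecutive numbers the log2 fold changes correlated with a Pearson's r of 0.43. The correlation was 0.34 at a difference of 10 (964 pairs), 0.26 at 20 (696 pairs), 0.13 at 50 (483 pairs) and 0.03 at 1000 (359 pairs). Pairs share all 10 libraries and are not independent, so these values are a description. Deviations from the group means also went together, with a median correlation over the 10 libraries of 0.20 for consecutive numbers and 0.05 at a difference of 1000. Assembled loci of the mRNA table showed the same decline. Their log2 fold change correlated with that of a single-isoform lncRNA locus at 0.32 and 0.27 for the number just below and just above, and at 0.0035 and 0.030 for a difference of 1000.

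**Figure D5:**
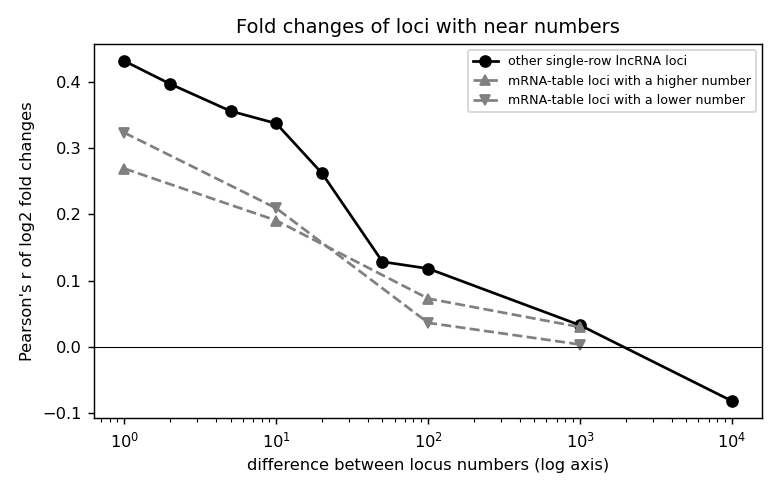
Pearson's r between log2 fold changes of loci whose assembler numbers differ by the amount on the horizontal axis (log axis), for pairs of single-isoform lncRNA loci (black) and for such loci paired with mRNA-table loci of higher or lower number (grey). The black line declines from 0.43 at consecutive numbers to 0.03 at a difference of 1000.

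The falls lay near each other in number more often than the rises did, a difference that was not tested. Of the 143 loci called lower, 62 had another locus called lower within 10 numbers, and of the 68 called higher 4 had another called higher. No called locus lay within 10 numbers of a call in the opposite direction (0 of 68 and 0 of 143). Calls were rare, with 0.664% of all tested loci called higher and 1.40% lower. Whether a count of 0 departs from these shares was not tested. Tested loci within 10 numbers of a fall numbered 341. Of these 18.2% were themselves called lower, where 1.40% of all tested loci were. A log2 fold change below 0 was found for 91.8% of them, where 71.9% of all tested loci had one. The 62 loci called lower are among the 341 and lie below 0 by the call, so the 91.8% is fixed in part. Near rises, 72 tested loci, the 4 called higher among them, had a median log2 fold change of -0.027, above that of all tested loci (-0.41). Of these 72 loci 5.56% were called higher, against 0.664% of all tested loci. There were 6 runs of at least 3 falls with gaps of up to 10 numbers. The longest held 5 falls each: in one, all 5 tested loci over 22 numbers were called, and in the other 5 of 7 over 18 numbers, with log2 fold changes from -2.42 to -1.37 in these 2 runs. Whether neighbouring numbers are pieces of 1 longer transcript was not tested.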

How the data were processed

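The authors deposited 2 tables of FPKM, 1 for lncRNA (31183 rows) and 1 for mRNA (364224 rows), with 1 column per library. Ribosomal RNA was removed from 1.5 µg of RNA and libraries were directional, per the labels' protocols. The submitters' processing notes name the build Rnor_5.0. Not given in the sources used here are the aligner, assembler and quantifier.

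The loci, lists and tests were chosen with earlier results of these data known. limma 3.58.1 in R 4.3.3 compared the groups on log2(FPKM + 0.1), using lmFit and an eBayes prior that follows the mean level, for the 20293 lncRNA rows averaging 0.1 FPKM or more. Two-sided p-values were adjusted by Benjamini-Hochberg over all these rows, and 0.05 was the threshold. The procedure was tested on simulated data with normal noise drawn independently for each row. That run does not cover the many values of 0 or the loci with near numbers that vary together. Named loci were the 2 largest rises and falls among called loci that averaged 0.5 FPKM or more and had groups apart, the 3 highest means, and the 2 smallest SDs. Other loci are given by rank, without identifiers. Relative library totals were estimated from the most frequent log2 ratio (bins of 0.0002, ratios within 0.35, values above 0.02 FPKM); this step, the exact tests of the 12 highest loci and the robust variance prior were chosen after seeing the data. Alternatives covered pseudocount, filter, scaling, variance model, library weights, unit tested, a rank test, the threshold and each library left out.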

Additional observations from a re-analysis of the deposited data

Results flagged for a closer look

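In 30 sets of 5 libraries, covering the named loci, the counts of detected loci, their summed and relative level, and the relative library totals, the extreme library was compared with the nearest other library of its group. Chance marks about 1 in 20 such sets, and 4 stood out by a gap of more than 0.71 of the range. For MSTRG.85473.1 it was sham replicate 10, at 0.0483 FPKM against 0 in the other sham libraries. There the gap equals the range, so the mark was certain and the rate of 1 in 20 does not hold for that set. For MSTRG.32364.1 it was MCAO/R replicate 3, at 0.565 FPKM against 0.165 in the nearest library. For MSTRG.268847.1 it was MCAO/R replicate 1, at 23008 FPKM against 19899. For MSTRG.251177.1 it was sham replicate 6, at 2.60 FPKM against 3.04.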

How the results depend on the processing

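No paired analysis was possible because the groups share no replicate number. The number of loci called (211, with 68 higher and 143 lower) moved under most settings. It was 3, all higher and 0 lower, on log2(FPKM + 1), and 90 were lower on log2(FPKM + 0.01). It was 123 with 70 lower without a filter, 452 with 401 lower at a mean of at least 0.5 FPKM, and 231 were lower among loci above 0 in at least 5 libraries. Equal sums over both tables gave 573 with 486 lower, equal sums without the 20 highest features 675 with 580 lower, factors from annotated transcripts 894 with 802 lower, factors from lncRNA rows 127 with 25 lower, and quantile normalization 118 with 31 lower. Without the intensity trend it was 62 (40 higher, 22 lower), with a robust variance prior 404 (319 lower), with library weights 458 (360 lower), with rows summed by locus 806 (155 higher, 651 lower), and with these loci fitted alone 1009 (180 higher, 829 lower), a count that describes the variance prior and is no test of the loci. At an adjusted p under 0.01 it was 5, all 5 higher and 0 lower. The exact rank sum test gave 0 (0 higher and 0 lower), as its smallest adjusted p over all rows was 0.126, and 2062 loci had an unadjusted p under 0.05. With 1 library left out, between 2 and 708 loci were called, 2 to 143 higher and 0 to 565 lower. The share called over all lncRNA rows moved too. It was 2.09% in the main fit, 0.0394% on log2(FPKM + 1) and 20.8% at a mean of at least 0.5 FPKM. With factors from annotated transcripts it was 7.90%, and with 1 library left out it ran from 0.0591% to 6.32%. It was 0.840% without a filter and 3.26% among rows above 0 in at least 5 libraries. Equal sums over both tables gave 5.16%, equal sums without the 20 highest features 6.09%, factors from lncRNA rows 1.32% and quantile normalization 1.20%. The share was 0.680% without the intensity trend, 3.72% with a robust variance prior and 4.17% with library weights. On log2(FPKM + 0.01) it was 1.38%.

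The median log2 fold change of -0.41 was -0.12 with a pseudocount of 1, -0.65 with 0.01, -0.036 with factors from lncRNA rows and -0.12 with quantile normalization, and ran from -0.48 to -0.32 with 1 library left out. The difference of MCAO/R and sham means in loci of at least 1 FPKM, -394, was -688 with factors from annotated transcripts, 129 with factors from lncRNA rows, -24.0 with quantile normalization and -242.5 without sham replicate 7. At 0.1 FPKM that difference, -827, turned to 112 and 51.2 with the latter 2. Loci seen in all libraries of 1 group and none of the other rose, with 1 library left out, to between 40 and 72 for MCAO/R and between 20 and 34 for sham, as fewer libraries were asked for. The median level of 0.142 FPKM was 0.0872 with medians over libraries. The median SD within groups was 0.19 with a pseudocount of 1 and 1.26 with 0.01. The correlation at consecutive numbers stayed between 0.38 and 0.49 in the alternatives run.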
